A study of Bos taurus with 138 samples.

Results

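Deubiquitinases are the proteases that cut ubiquitin from proteins, and their mRNAs were followed here through bovine oocyte maturation and preimplantation development. The members were taken by symbol: every row of the counts table whose name starts with USP, OTUD, UCHL or JOSD and a digit, together with OTUB1, OTUB2, BAP1, CYLD, STAMBP and ATXN3. This gave 65 of the 16706 gene symbols, of which 49, with CYLD, belonged to the ubiquitin-specific protease (USP) family, 9 to the ovarian tumour (OTU) family, 4 to the ubiquitin C-terminal hydrolase (UCH) family, 2 to the Josephin family and 1, STAMBP, to the JAMM metalloproteases. One of those counted with the USP family, USP6NL, shares only its name with the group and encodes a GTPase-activating protein for RAB proteins, so its values are given with that reservation.

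Immature oocytes with a germinal vesicle (GV), mature oocytes arrested in metaphase II (MII) and embryos at the 2-cell, 8-cell, morula and blastocyst stages were compared. All came from abattoir Bos taurus ovaries. GV oocytes were taken from follicles, and MII oocytes were matured in vitro. Embryos were produced by maturation, fertilisation and culture in vitro with semen of a single bull. No stage carried a genetic modification. At each stage, oocytes or embryos were treated before collection with cycloheximide, which holds ribosomes on the mRNA. Their lysates were run on 2 sucrose gradients (A and B). Each gradient was cut into 10 fractions from the lightest (F1) to the heaviest (F10). The counts of F8, F9 and F10, the fractions that hold mRNA with several ribosomes, were summed per gradient and are called the polysome pool, and those of F3 to F5, which hold mRNA with a single ribosome, are called the light pool. Whole oocytes or embryos gave 3 transcriptome libraries per stage (A, B and C). Every library was made from many pooled oocytes or embryos, so the spread between libraries is that between pools and not between single embryos. The pools and the transcriptomes also came from different lysates and amounts of RNA, so a difference between them holds any difference between the kinds of library, which cannot be told apart from polysome association. Levels are given as CPM, that is, counts scaled to a common library size after TMM normalisation, and since transcript lengths were not used, a level is compared only with the same gene's level elsewhere.

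As background, ubiquitin is attached to proteins by E1, E2 and E3 enzymes, and deubiquitinases reverse this step, release free ubiquitin from chains and process its precursors. In the oocyte and early embryo much of the maternal protein store is removed through the ubiquitin-proteasome system, and monoubiquitin on histones H2A and H2B is a chromatin mark that several of these enzymes remove. UCHL1 is known as one of the most abundant proteins of the mammalian oocyte. An mRNA can be stored without ribosomes, so its level in polysomes and its level in the whole cell are separate measurements.

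Polysome pools held between 22543737 and 39380638 counts and transcriptomes between 3269386 and 11812567, with the blastocyst transcriptomes the shallowest. All 65 members passed the filter on low counts of the model with pools and transcriptomes (30 libraries, edgeR's quasi-likelihood test, p-values adjusted by Benjamini-Hochberg over all genes, calls at an adjusted p under 0.05), and all but USP26 passed that of the model with light pools. The stage labels were checked with marker genes. The 8 oocyte genes summed to between 10190 and 21380 CPM in GV, MII and 2-cell transcriptomes. From the 8-cell stage on their transcriptome sum was at most 666 CPM. The 6 embryo genes summed to 432.1 to 722.7 CPM in morula and 5025 to 5637 CPM in blastocyst transcriptomes. Most of the latter sum was KRT8 and KRT18 (3094 to 3429 CPM), and GATA3 was also highest in blastocysts. NANOG was highest at the 8-cell stage (114.6 to 212.9 CPM) and POU5F1 in morulae (297.3 to 439.7 CPM). CDX2 in blastocysts (6.29 to 8.18 CPM) lay within its 2-cell range (3.27 to 10.8 CPM). The spread between the gradients was not the same at all stages: over the 65 members, the median absolute log2 difference between pools A and B was 0.47 in GV oocytes and 0.44 in 2-cell embryos but 1.17 at the 8-cell stage and 1.38 in morulae, where 38 members differed by more than 2-fold. Between transcriptomes A and B the same median lay between 0.14 and 0.45. In the RefSeq annotation, which is not the one behind the counts, the spans of 17 members overlap another protein-coding gene, among them USP5 (CDCA3), USP7 (ABAT), UCHL5 (RO60), USP13 (PEX5L), USP16 (RWDD2B), USP30 (ALKBH2), USP34 (AHSA2), USP40 (DGKD), USP45 (SFRS18), USP49 (MED20) and USP53 (C6H4orf3). Strand and exons were not compared. Part of their counts could belong to the neighbour, which was not tested.

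The first question was which of these mRNAs were represented in polysomes above or below their level in the whole cell. In GV oocytes 16 members were higher in the polysome pools than in the transcriptome, which is 24.6% of them against a background of 22.2% over all 14612 genes tested, and 23 were lower (35.4% against 17.7%). At the MII stage 16 were higher against a background of 30.8%, and 33, or 50.8%, were lower against 26.7%. The counts in 2-cell embryos were 17 higher (29.1% of all genes) and 30 lower (21.9% of all genes). Deubiquitinase mRNAs were thus divided between both directions, with the lower share above that of all genes at each of these stages.

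From the 8-cell stage on the lower members again outnumbered the higher ones. There were 18 higher and 27 lower in 8-cell embryos, where 28% and 31% of all genes were called. Morulae had 15 higher and 27 lower against backgrounds of 26.5% and 25.2%. Blastocysts had 9 higher and 23 lower against 20% and 20.1%. The median log2 fold of the 65 members ran from -1.97 at MII to -0.83 in morulae, beside medians over all genes between -0.27 and 0.18. Where members with every pool at 0 were entered at the bound that 3 counts per library allow, the members' medians lay between -1.89 and -0.83. The all-gene median depended on the scaling from the 2-cell stage on: it was -0.50 with the size factors of DESeq2 and -0.34 with library totals at the 8-cell stage, -0.11 and -0.34 in morulae, -0.23 and -0.42 in blastocysts, and 0.01 and 0.10 in 2-cell embryos.

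**Figure D1:**
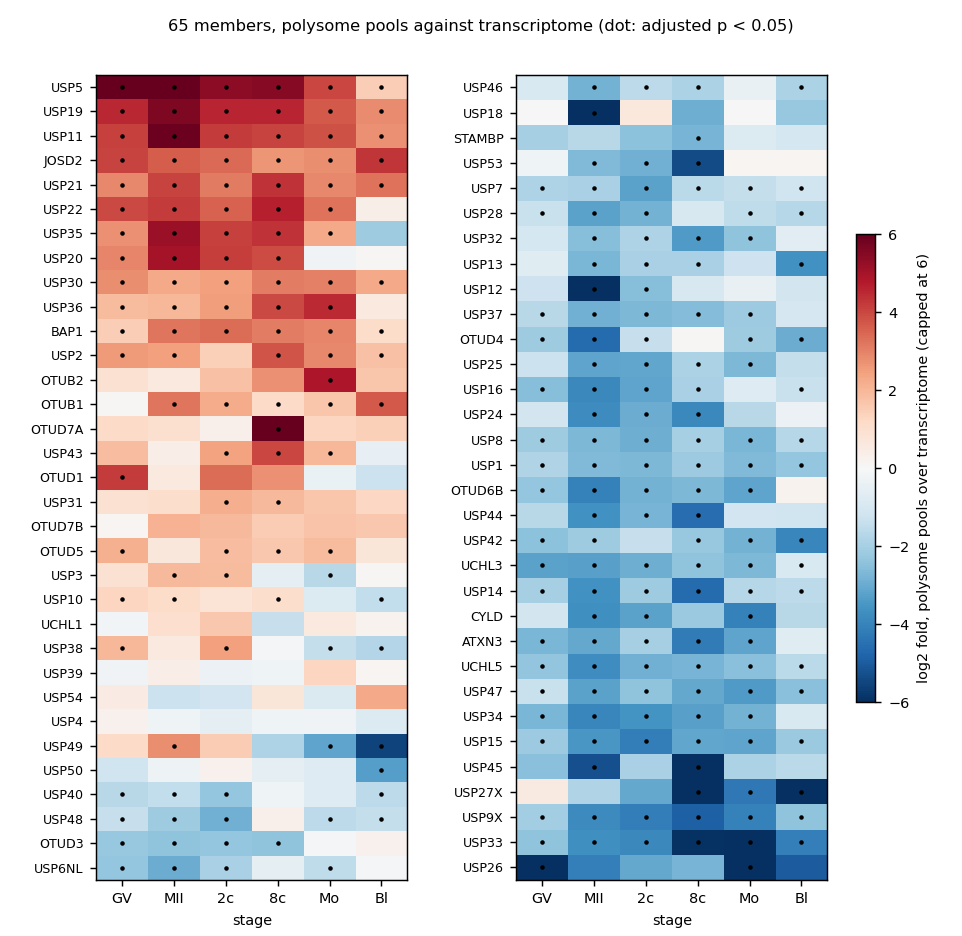
Log2 fold of polysome pools over transcriptome for the 65 members (rows) at GV, MII, 2-cell (2c), 8-cell (8c), morula (Mo) and blastocyst (Bl) stages, coloured from blue (lower in polysomes) to red (higher) and capped at 6 in either direction, with a dot where the adjusted p was under 0.05. Rows are ordered by the mean of the capped values; USP5 is at the top with values up to 6.73, and colours of rows with all pools at 0, such as USP45 at the 8-cell stage, rest on the fitted value and not on a measured fold.

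Calls were next counted over the stages. Of the 65 members, 7 were higher in polysomes at all 6 stages (9.92% of all genes were) and 10 were lower at all 6 (5.78% of all genes). Counting 5 or 6 stages, 12 were higher (17% of all genes) and 19 were lower (12.1%). The 12 were USP5, USP11, USP19, USP21, USP30, BAP1 and JOSD2 at all 6 stages and USP2, USP22, USP35, USP36 and OTUB1 at 5. The JOSD2 calls in morulae and blastocysts rested on transcriptomes at or under 3 counts per library. The 19 were UCHL3, UCHL5, USP1, USP7, USP8, USP9X, USP14, USP15, USP33 and USP47 at all 6 and ATXN3, OTUD4, OTUD6B, USP16, USP28, USP34, USP37, USP42 and USP48 at 5. Only USP3, USP10, USP38 and USP49 were called in both directions at different stages (7.53% of all genes), and OTUD7B, UCHL1, USP4, USP39 and USP54 were called at none (13.2% of all genes). Over the alternative tests, scalings and filters the 2 groups numbered 11 or 12 and 18 to 21, and all or all but 1 of the same genes were in them, while without the libraries of replicate C they numbered 9 and 14. Single calls in these groups depended on the scaling or the filter: with library totals alone USP5 (adjusted p = 0.0707), BAP1 (0.129) and USP2 (0.108) were not called in blastocysts and USP47 not in GV oocytes (0.0578), and with no filter UCHL3 (0.0573) and USP16 (0.0663) were not called in blastocysts.

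**Figure D2:**
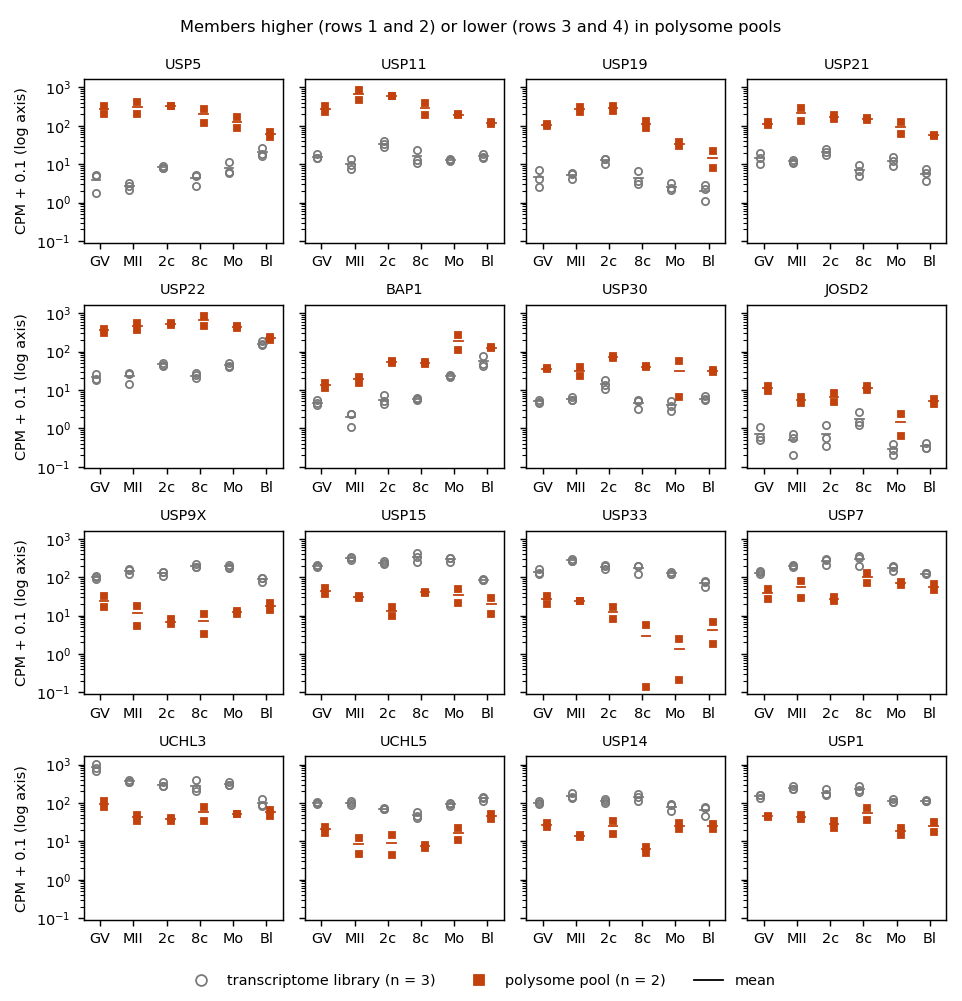
Level of 16 members in each transcriptome library (open circles) and each polysome pool (filled squares), as CPM + 0.1 on a log axis, at the 6 stages, with the group mean as a short line. The 8 members of the upper rows have both pools above all 3 transcriptomes at nearly every stage and the 8 of the lower rows the reverse; in USP5 the pools stay at or above 52.1 CPM while the transcriptomes reach 26.7 CPM at most.

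Among the enzymes that recycle ubiquitin and act at the proteasome, USP5 stood furthest above its transcriptome. USP5 takes apart unanchored ubiquitin chains. In GV oocytes its transcriptomes measured 5.05, 1.71 and 4.90 CPM and its polysome pools 206 and 328 CPM, a log2 fold of 6.03 ± 0.52 (SE, adjusted p = 3.88e-09). The groups did not overlap at any stage, but the gap narrowed: in blastocysts the transcriptomes stood at 26.7, 18.9 and 16.5 CPM and the pools at 69.4 and 52.1 CPM, a log2 fold of 1.46 ± 0.45 (adjusted p = 0.0124).

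UCHL3, UCHL5 and USP14 were lower in polysomes at all 6 stages. UCHL3, which cleaves small adducts from ubiquitin and also acts on NEDD8, measured 682, 1039 and 819 CPM in GV transcriptomes and 109.6 and 79.3 CPM in the pools, a log2 fold of -3.23 ± 0.36 (adjusted p = 1.55e-07). Its transcriptomes fell to 126, 83.9 and 88.8 CPM by the blastocyst stage, above the pools at 47.0 and 65.9 CPM, and the log2 fold there was -0.92 ± 0.32 (adjusted p = 0.0267). UCHL5, which sits on the proteasome and in the INO80 remodeller, had log2 folds from -1.62 to -3.70, and USP14, which trims chains at the proteasome, from -1.55 to -4.63. The lowest USP14 pools were those of 8-cell embryos, 7.13 and 5.01 CPM against 171, 138.5 and 110.2 CPM in the transcriptomes.

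UCHL1 was called at no stage. The pools of MII oocytes held 2537 and 2434 CPM and the transcriptomes 1242, 1049 and 1139 CPM. These did not overlap, yet none of the 6 stages passed the test (log2 folds from -1.39 to 1.60, smallest adjusted p = 0.113). Its UCH relative UCHL3 was lower at every stage, although the difference between the genes was not tested.

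Among the 11 histone and chromatin enzymes, BAP1, USP21, USP22 and USP36 were above their transcriptome in the polysome pools at most stages. Heavy and light pools are compared further below. USP22 is the deubiquitinase of the SAGA coactivator and removes ubiquitin from H2B. Its GV transcriptomes measured 26.6, 18.2 and 19.7 CPM and the pools 312 and 393 CPM (log2 fold 3.97 ± 0.30, adjusted p = 8.90e-10), and at the 8-cell stage 23.7, 20.2 and 26.9 CPM stood against 824 and 473 CPM (log2 fold 4.68 ± 0.31). In blastocysts the transcriptomes had reached 156, 144 and 183 CPM, the pools 240.4 and 201 CPM, and the log2 fold of 0.35 did not pass (adjusted p = 0.335).

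BAP1, which removes ubiquitin from H2A as a partner of ASXL proteins, was low in oocytes in both kinds of library. Its transcriptomes measured 4.51, 5.22 and 4.0 CPM in GV oocytes and 48.5, 42.6 and 75.2 CPM in blastocysts, and its pools 11.4 and 15.1 and 127 and 124 CPM. In 2-cell embryos 50.9 and 57.1 CPM stood against 4.20, 5.02 and 7.34 CPM (log2 fold 3.35 ± 0.40, adjusted p = 2.14e-07). The blastocyst call (log2 fold 1.08, adjusted p = 0.0264) was also lost with the size factors of DESeq2 (adjusted p = 0.0502).

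USP21 and USP36 completed this group. USP21, another H2A deubiquitinase, was higher at all 6 stages with log2 folds from 2.88 to 4.34, and in 8-cell embryos its pools held 163 and 137.8 CPM against 4.91, 6.60 and 9.39 CPM. USP36, a nucleolar enzyme that stabilises MYC, was higher at 5 stages, most in morulae with 94.0 and 278 CPM against 14.1, 6.89 and 3.72 CPM (log2 fold 4.48 ± 0.54, adjusted p = 4.22e-07). Pools A and B of morulae were far apart here, and both lay above all transcriptomes.

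USP7, USP16 and USP42 went the opposite way within the chromatin group. USP16, which removes ubiquitin from H2A before mitosis, was lower at 5 stages, with 185, 158 and 191 CPM in MII transcriptomes and 13.4 and 13.6 CPM in the pools (log2 fold -3.85 ± 0.56, adjusted p = 3.27e-06). Its morula pools disagreed, at 211 and 34.8 CPM, one above and one below the transcriptomes. USP7, the enzyme that stabilises MDM2 and p53, was lower at all 6 stages with log2 folds from -1.21 to -3.22. USP42, a nuclear relative of USP36, was lower at 5 stages, and its blastocyst pools of 3.45 and 1.93 CPM were the furthest below the transcriptomes of 34.8, 34.2 and 45.2 CPM (log2 fold -3.92 ± 0.69, adjusted p = 7.86e-05). With DESeq2 (adjusted p = 0.0068) or another scaling USP42 was lower in 2-cell embryos as well.

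The remaining chromatin enzymes were called at fewer stages. USP44, which sustains the spindle checkpoint through CDC20, was lower at MII, 2-cell and 8-cell stages, and the largest of these differences set pools of 0 and 1.25 CPM against transcriptomes of 7.96, 14.3 and 23.3 CPM. USP3, an H2A and H2B deubiquitinase, was higher in 2-cell embryos and MII oocytes (22.8 and 24.9 against 5.83, 5.95 and 5.28 CPM) and lower in morulae (0.273 and 3.24 against 4.47, 7.07 and 5.42 CPM). USP49, which acts on H2B, was higher at MII (21.8 and 15.4 against 3.02, 2.17 and 2.15 CPM) and lower in morulae. Its blastocyst call is not given a fold, since both pools were at 0 and the transcriptomes, at 0.606, 0.210 and 0.204 CPM, lay under the floor of 3 counts. USP27X, a relative of USP22, was at 0 in both 8-cell pools with transcriptomes of 2.42, 1.56 and 1.51 CPM, at least 18.5-fold lower by the floor of 3 counts per library, and was lower in morulae and blastocysts too (0.0945 and 0 against 6.66, 6.92 and 8.15 CPM at the latter).

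Both enzymes of mitochondria were higher in the polysome pools at 5 or 6 stages (17% of all genes were). USP30 sits in the outer mitochondrial membrane and opposes parkin. Its pools held 34.2 and 36.1 CPM in GV oocytes against 5.51, 4.42 and 4.80 CPM in the transcriptomes (log2 fold 2.78 ± 0.56, adjusted p = 0.000337), and it was called at all 6 stages with log2 folds from 2.28 to 3.05. In morulae its pools were 6.45 and 55.5 CPM, beside transcriptomes of 5.14, 3.76 and 2.76 CPM. USP35, which has been placed at mitochondria as well, was higher from GV to morula, with 23.5 and 13.0 CPM against 0.312, 0.850 and 0.215 CPM at MII (log2 fold 5.16 ± 0.83, adjusted p = 1.19e-05), and had pools of only 0.142 and 0.470 CPM in blastocysts, where the log2 fold was -2.14 (adjusted p = 0.0565). DESeq2 called USP35 lower there (adjusted p = 0.0192).

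Enzymes of protein quality control were divided. USP19, an enzyme tied to degradation at the endoplasmic reticulum, was higher at all 6 stages. MII transcriptomes measured 5.31, 5.85 and 3.98 CPM and pools 310.2 and 229 CPM, a log2 fold of 5.61 ± 0.49 (adjusted p = 1.16e-09). JOSD2, a small Josephin protein, was higher at all 6 stages from transcriptomes of no more than 2.57 CPM. In 8-cell embryos 9.60 and 12.9 stood against 2.57, 1.39 and 1.09 CPM (log2 fold 2.63 ± 0.79, adjusted p = 0.00645). JOSD2 transcriptomes of morulae (0.285, 0.179 and 0.106 CPM) and blastocysts (0.303, 0.210 and 0.204 CPM) lay at or under the floor of 3 counts. Its calls there are therefore given no fold. ATXN3, the Josephin protein that edits long chains and works with VCP, was lower at 5 stages, most at the 8-cell stage with 2.06 and 2.76 CPM against 35.3, 47.4 and 41.4 CPM (log2 fold -4.18 ± 0.85, adjusted p = 0.000214).

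Of the 10 enzymes of DNA damage and the cell cycle, 7 were lower in polysomes at 1 stage or more and higher at none (41.6% of all genes were). USP33, which acts on centrosome and receptor proteins, showed the widest gap of those with counts in both kinds of library. Its morula transcriptomes measured 118, 137 and 121 CPM and the pools 2.35 and 0.114 CPM, a log2 fold of -6.90 ± 1.12 (adjusted p = 2.15e-05). USP47, a regulator of base excision repair, was lower at all 6 stages (-1.36 to -3.41), and USP37, which opposes the anaphase promoting complex, at 5 (-1.65 to -2.88). USP28, which stabilises MYC, and USP48, an H2A deubiquitinase opposing BRCA1, were lower at 5 stages each, with the 8-cell stage the exception in both. With DESeq2 (adjusted p = 0.0219) or its size factors (0.0339) USP28 was lower at the 8-cell stage as well.

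USP20, OTUB1 and USP10 were the members of this group with more mRNA in polysomes. USP20, a checkpoint and receptor-trafficking enzyme, was higher from GV to the 8-cell stage, with 25.4 and 18.8 CPM against 0.625, 0.850 and 0.431 CPM at MII (log2 fold 4.98 ± 0.98, adjusted p = 0.000143). By the morula stage its pools had dropped to 0 and 1.82 CPM and the difference did not pass (adjusted p = 0.895). OTUB1, which blocks E2 enzymes as well as cutting K48 chains, measured 198, 229 and 212 CPM in GV transcriptomes and 223 and 238 CPM in the pools, a log2 fold of 0.05 (adjusted p = 0.913). From MII on it was higher at every stage, and the pools were tight: 908 and 843 CPM in blastocysts against 82.7, 58.9 and 49.7 CPM (log2 fold 3.68 ± 0.25, adjusted p = 4.04e-10).

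USP10, which protects p53 and binds G3BP proteins, changed direction with stage. Its GV pools of 132 and 123 CPM lay above transcriptomes of 66.9, 36.7 and 46.5 CPM (log2 fold 1.29 ± 0.42, adjusted p = 0.0184). It was also higher at MII and, with overlapping libraries (118 and 314 against 64.3, 128 and 104 CPM), at the 8-cell stage. Its blastocyst pools of 34.6 and 52.4 CPM lay below transcriptomes of 104, 125 and 113 CPM (log2 fold -1.50 ± 0.46, adjusted p = 0.011). USP38, whose role is less settled, followed the same order, higher in GV and 2-cell (21.5 and 27.2 against 5.14, 4.62 and 4.21 CPM) and lower in morulae and blastocysts (7.93 and 6.30 against 22.1, 21.8 and 23.2 CPM). Apart from USP10 at the 8-cell stage, no pool overlapped a transcriptome in the comparisons whose values are given for these genes.

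USP45 and USP26 had pools without counts. USP45, which removes ubiquitin from the repair nuclease ERCC1, was at 0 in both 8-cell pools with transcriptomes of 14.9, 21.4 and 20.8 CPM, so it was at least 193-fold lower by the floor. At MII the pools held 1.36 and 0.687 CPM against 21.5, 36.1 and 52.4 CPM (log2 fold -5.28 ± 1.41, adjusted p = 0.0028). USP26, known from testis, had no counts in any pool other than 1 of the 8-cell stage. In morulae its transcriptomes varied from 0.806 to 18.7 CPM and the bound was at least 70.5-fold, while its GV call rested on a single transcriptome of 1.38 CPM, the others being at 0.

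The partners of the WD40 protein UAF1 (WDR48) are USP1, USP12 and USP46, and none of them was higher in polysomes at any stage. All were called lower alone, as were 41.6% of all genes. USP1, which deubiquitinates FANCD2 and PCNA, was lower at all 6 stages with log2 folds from -1.82 to -2.67 across stages. USP46 was lower at 4 stages, most at MII (36.4 and 16.9 against 206, 169.9 and 148 CPM). USP12 was lower at MII and 2-cell only, and its MII pools of 0.250 and 0 CPM stood against 12.2, 6.61 and 4.09 CPM (log2 fold -5.97 ± 1.13, adjusted p = 8.83e-05).

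The very large enzymes USP9X, USP24 and USP34 were also called in the lower direction alone (41.6% of all genes were). USP9X, known from adhesion and polarity of early embryonic cells, was lower at all 6 stages. At the 8-cell stage its transcriptomes measured 182, 224 and 186 CPM and the pools 3.15 and 10.9 CPM, a log2 fold of -4.89 ± 0.53 (adjusted p = 4.72e-08). USP34, which acts on axin in WNT signalling, was lower at 5 stages (-2.74 to -3.93), and USP24 at MII, 2-cell and 8-cell, the last with 2.31 and 0.894 CPM against 27.0, 21.4 and 15.8 CPM.

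Of the 3 enzymes of endosomes and the Golgi, USP8, which spares receptors from lysosomal sorting, was lower at all 6 stages. MII transcriptomes held 623, 669 and 877 CPM and pools 96.3 and 148 CPM (log2 fold -2.70 ± 0.41, adjusted p = 4.60e-06). USP32, a membrane-bound Golgi enzyme, was lower at 4 stages. STAMBP, the endosomal JAMM enzyme specific to K63 chains, was lower at the 8-cell stage only, where its pools were far apart at 0.168 and 9.43 CPM against 35.5, 30.5 and 30.1 CPM.

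Among the 3 members tied to splicing, USP15 was the only one called (13.2% of all genes were called at no stage). Its transcriptomes of 239, 264 and 220.1 CPM in 2-cell embryos stood above pools of 9.41 and 16.6 CPM (log2 fold -4.14 ± 0.43, adjusted p = 3.70e-08), and it was lower at all 6 stages. USP4, which shares most of its domain plan with USP15, had log2 folds from -0.22 to -0.82 and no call. USP39, a spliceosome protein that lacks protease activity, had no call either, and its 8-cell pools were at 0.419 and 54.9 CPM.

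Of the 7 members of inflammatory and interferon signalling, 4 were called lower alone and 2 higher alone at 1 stage or more (41.6% and 37.6% of all genes). OTUD4 was lower at 5 stages, most at MII with 2.85 and 4.96 CPM against 102, 78.8 and 80.0 CPM (log2 fold -4.61 ± 0.57, adjusted p = 2.81e-07). CYLD, which removes K63 and linear chains in NF-κB signalling, was lower at MII, 2-cell and morula stages, and USP25 at 4 stages from MII to morula. OTUD5, a brake on type I interferon, was higher at 4 stages, for example in GV oocytes (29.4 and 18.2 against 6.66, 4.42 and 4.70 CPM), and OTUD1 was higher in GV oocytes (2.27 and 3.78 against 0.153, 0.201 and 0.10 CPM). All GV transcriptomes of OTUD1 lay under the floor of 3 counts, so its call, the only one it had, is given no fold. USP18, which removes the interferon-induced modifier ISG15, had MII transcriptomes of 2.5, 6.23 and 1.94 CPM and no counts in either MII pool, at least 33-fold lower by the floor.

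The 14 further members included USP11, which was higher at all 6 stages. USP11, a relative of USP4 and USP15 with roles in recombination repair, measured 9.38, 13.6 and 7.21 CPM in MII transcriptomes and 854 and 457 CPM in the pools, a log2 fold of 5.90 ± 0.40 (adjusted p = 1.60e-11). USP2, known from cyclin D1 and clock proteins, was higher at 5 stages (log2 folds from 1.76 to 3.75). OTUD6B, which acts on translation and the proteasome, was lower at 5 stages, with 545, 539 and 763 CPM in MII transcriptomes against 32.0 and 48.7 CPM in the pools (log2 fold -4.07 ± 0.41, adjusted p = 1.13e-08). OTUB2 was higher in morulae (134 and 19.1 against 1.33, 3.76 and 2.02 CPM), OTUD7A at the 8-cell stage through 1 pool (8.22 and 0.0271 against 0.156, 0 and 0 CPM), and USP43 at 3 stages from 2-cell to morula. USP31 was higher at the 2-cell and 8-cell stages. USP50 was lower in blastocysts (0.0945 and 0.564 against 2.73, 4.41 and 2.04 CPM), and USP53 was lower at MII, 2-cell and 8-cell stages (0.0419 and 2.41 against 55.5, 50.2 and 44.9 CPM at the last). OTUD3 and USP40 were lower at 4 stages each, and USP6NL, the GTPase-activating protein, at 4 as well.

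Of 14 pairs of close relatives, 3 were called on opposite sides at several stages. Over all genes, 37.6% were called higher alone and 41.6% lower alone at 1 stage or more. A share over pairs of other genes was not computed, so the count of 3 is not read as a trait of relatives. USP5 was higher at all 6 stages, whereas USP13, which has the same domains but little chain-cutting activity, was lower at MII, 2-cell, 8-cell and blastocyst stages, with MII pools of 51.2 and 59.3 CPM against 242, 334 and 426 CPM. USP20 was higher at the first 4 stages and USP33 lower at all 6. USP36 and USP42 were higher and lower at 5 stages each, and USP15 was lower throughout without any call for USP4. Other pairs shared a direction: USP2 and USP21 were both higher, USP25 and USP28 both lower, USP16 and USP45 only lower, and USP12 and USP46 only lower. OTUB1 was higher from MII on and OTUB2 in morulae. USP44 and USP49 were on opposite sides at MII alone, with USP44 lower and USP49 higher. Between USP53 and USP54, and OTUD7A and OTUD7B, the calls did not line up, since USP54 and OTUD7B had none. JOSD2 was measured without its relative JOSD1, which was not analysed here. The pairs were fixed by family and the differences between their members were not tested. The remaining pair is that of UCHL1 and UCHL3 above.

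The wider ubiquitin system gave the following counts over the 6 stages, at which 20% to 30.8% of all genes were higher and 17.7% to 31% lower, with medians between -0.27 and 0.18. Of 27 tested genes for other proteases of ubiquitin-like proteins and their relatives (PSMD14, COPS5, OTULIN, the MINDY and SENP families and others), 2 to 5 were higher in polysomes and 10 to 14 lower at each stage, and the median log2 fold lay between -2.38 and -0.92. Of 34 E2 enzymes, 2 to 8 were higher and 12 to 17 lower, with medians between -1.06 and -0.40. Cofactors of deubiquitinases, such as WDR48, the ASXL proteins and SAGA subunits, numbered 21, with 5 to 10 higher and 2 to 5 lower and medians between 0.03 and 1.03. Of the E1 enzymes UBA1 and UBA6, at most 1 was called in either direction, and of the 4 ubiquitin precursor genes 1 to 3 were higher and up to 3 lower.

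The transcriptome itself changed most between the 2-cell and 8-cell stages. There 10 members rose and 18 fell by more than 2-fold (26.6% and 23.5% of all genes did), and the median log2 change of the members was -0.51 beside 0.03 over all genes. From GV to MII, 7 rose and 3 fell (6.61% and 10.5% of all genes). From MII to 2-cell, 5 rose and 2 fell (6% and 5.96%). From 8-cell to morula 3 rose and 6 fell (6.6% and 7.75%), and from morula to blastocyst 6 rose and 9 fell (10.2% and 11.4%). Away from the 8-cell transition these splits moved with the scaling: GV to MII gave 2 up and 5 down with library totals alone and 10 and 2 with the size factors of DESeq2, under which the median change of all genes moved from 0.00 to -0.29 and 0.12. The other splits that moved by over 10 percentage points were MII to 2-cell, with 12 up and 1 down by library totals, and morula to blastocyst, with 9 up and 8 down by the size factors.

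Of the members that rose in the transcriptome between the 2-cell and 8-cell stages, USP18 was at or near 0 before. It was at 0 in all 3 GV transcriptomes, at 0.0779, 0.0810 and 0 CPM in 2-cell and 59.4, 25.1 and 34.2 CPM in 8-cell embryos (adjusted p = 0.000617, with no fold given since the 2-cell values lay under the floor), and back to 1.14, 3.04 and 4.78 CPM in morulae. From GV to MII it rose at least 13.1-fold by the floor. STAMBP (1.71, 2.02 and 2.06 to 35.5, 30.5 and 30.1 CPM), USP50, CYLD (13.3, 13.9 and 10.0 to 68.2, 99.3 and 85.3 CPM), USP12 and USP27X (with no filter, adjusted p = 0.0544) rose as well, followed by USP3, UCHL1, USP38 and OTUB1 with log2 folds down to 1.56 ± 0.22. The 2-cell transcriptomes of USP50, at 0.0779, 0.324 and 0 CPM, lay at or near the floor.

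The 18 that fell at this step included USP13, USP43, USP44, USP28 and USP48, and OTUD7A, whose 8-cell transcriptomes (0.156, 0 and 0 CPM after 3.5, 1.46 and 2.29 CPM) lay under the floor of 3 counts. USP13 dropped from 446, 398 and 272 to 19.1, 19.6 and 22.7 CPM (log2 fold -4.08 ± 0.74, adjusted p = 7.35e-05), and USP44 from 249.8, 218 and 193 to 7.96, 14.3 and 23.3 CPM. USP48 dropped from 425, 412 and 284 to 34.7, 39.8 and 36.6 CPM (log2 fold -3.23 ± 0.35, adjusted p = 5.43e-08) and was back at 368, 453 and 309 CPM in morulae (log2 fold 3.26 ± 0.35). It was low at this stage alone, and its pools, at 33.0 and 64.0 CPM and then 76.9 and 22.5 CPM, had no called change.

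UCHL1 fell furthest of the 65 after the 8-cell stage. Its transcriptomes measured 1112, 1454 and 1065 CPM in GV oocytes, 413, 248 and 359 CPM in 2-cell and 2487, 1391 and 943 CPM in 8-cell embryos, and then 5.80, 29.2 and 5.95 CPM in morulae, a log2 change of -6.97 ± 0.99 (adjusted p = 3.47e-05). The pools followed, from 634 and 686 to 0.328 and 40.0 CPM (log2 change -5.00 ± 1.10, adjusted p = 0.00129). The 8-cell transcriptome with the highest UCHL1 and USP18, library A, was also highest in cumulus genes: the 12 of the list summed to 263.7 to 1153 CPM in 8-cell transcriptomes, against 424.5 to 464.3 CPM in 2-cell and 19.6 to 26.9 CPM in morula transcriptomes, and to 161.2 to 210.6 CPM in 8-cell pools against 774 to 1059 CPM in 2-cell pools. Of the 11 tested, 5 rose and 2 fell in the transcriptome from 2-cell to 8-cell, and 0 rose and 9 fell from 8-cell to morula. In the 8-cell transcriptomes FOXL2 and FSHR lay between 0 and 7.33 CPM, VCAN between 108.7 and 803.9 CPM and CYP11A1 between 49.5 and 133 CPM, while STAR and HAS2 were below every 2-cell transcriptome. Their part in these changes was not tested. In such bulk samples fewer cells of a type and less RNA per cell cannot be told apart.

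At the other transitions single enzymes moved. OTUB1 fell from 198, 229 and 212 to 38.0, 43.8 and 34.4 CPM during maturation (log2 change -2.35 ± 0.22, adjusted p = 4.18e-08) and from 297, 299.9 and 310.0 to 82.7, 58.9 and 49.7 CPM at the last step (log2 change -2.27 ± 0.22, adjusted p = 1.29e-07). Also during maturation, BAP1 and UCHL3 fell, and USP18, USP53, USP37, USP46, USP28, USP8 and OTUD6B rose. With the size factors of DESeq2 the change of UCHL3, at -0.99, was under 2-fold. With library totals alone USP37 (adjusted p = 0.17), USP28 (0.194) and OTUD6B (0.0972) were not called at this step, and the change of USP46, at 0.998, was under 2-fold. From MII to 2-cell, USP35, USP11, USP5, BAP1 and USP10 rose while USP18 and OTUD6B fell, the latter not with library totals (adjusted p = 0.0715). Between 8-cell and morula, USP43, USP48 and BAP1 rose and UCHL1, JOSD2, USP3, USP36, USP46 and USP1 fell. At the last step USP43 rose from 3.33, 5.91 and 2.98 to 33.6, 52.4 and 37.7 CPM (log2 change 3.31 ± 0.76, adjusted p = 0.00225), with USP27X, USP22, USP42, USP5 and BAP1, and OTUD6B fell from 111, 109 and 134 to 18.8, 12.4 and 10.6 CPM (log2 change -3.12 ± 0.34), with OTUB1, USP53, USP15, ATXN3, UCHL3, USP28, USP21 and USP9X. Of these, ATXN3 was not called with the size factors of DESeq2 (adjusted p = 0.0615) and USP42 not with library totals (adjusted p = 0.0553).

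**Figure D3:**
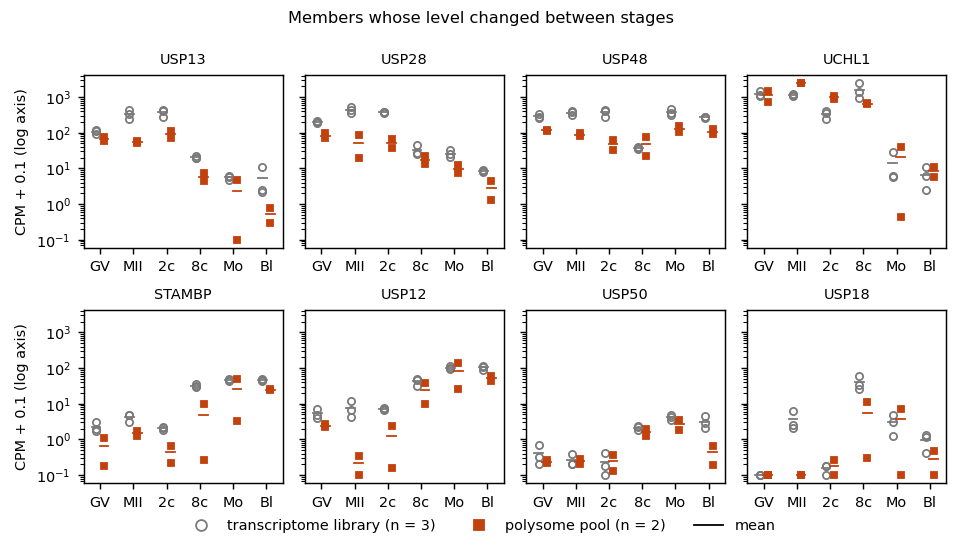
Level of 8 members whose transcriptome changed between stages, as CPM + 0.1 on a log axis, in each transcriptome library (open circles) and polysome pool (filled squares) with group means as short lines. USP13 and USP28 fall from the 2-cell stage on, USP48 dips at the 8-cell stage alone, UCHL1 drops after it, and STAMBP, USP12, USP50 and USP18 appear or rise at it.

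In the polysome pools few members changed before the 8-cell stage. From GV to MII 1 rose, USP11, and 1 fell, USP12 (3.03% and 2.33% of all genes; 0 and 4 with library totals, by which USP11 had an adjusted p of 0.203), and from MII to 2-cell 3 rose, OTUD4, USP36 and BAP1, and 0 fell (3.37% and 5.14%), USP36 not being called with the size factors of DESeq2 (adjusted p = 0.0507). The step to the 8-cell stage brought 8 up and 14 down (21% and 25.2%). From 8-cell to morula 7 rose and 12 fell (18.5% and 17.7%), a split of 5 and 18 with library totals alone. From morula to blastocyst 1 rose and 4 fell (5.79% and 8.13%), against 0 and 4 with library totals. Those that rose into the 8-cell pools were USP18 (0.163 and 0 to 0.210 and 10.8 CPM, thus in gradient B), USP12 (2.23 and 0.0595 to 38.2 and 9.70 CPM), CYLD, STAMBP, USP50, USP7, USP15 and USP16. The STAMBP change (0.544 and 0.119 to 0.168 and 9.43 CPM, log2 3.79) rested on gradient B, since without replicate B it was -1.71 (adjusted p = 0.0823).

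The members that fell into the 8-cell pools included USP45, at least 80.3-fold lower than its mean of 2-cell pools, USP44, USP49, USP53, USP13 and ATXN3. USP53 went from 34.0 and 12.8 to 0.0419 and 2.41 CPM and back to 146 and 26.4 CPM in morulae (log2 change 5.93 ± 0.90, adjusted p = 2.81e-05). USP14 made the same excursion, from 15.3 and 34.5 to 7.13 and 5.01 and 20.5 and 30.8 CPM. Into the morula pools UCHL1, USP20, USP3, USP35, CYLD and USP54 fell most, and USP45, USP53, OTUD3, USP14, BAP1 and USP48 rose most, USP45 through gradient B (0.109 and 10.7 CPM after 0 in both 8-cell pools). At the last step USP35, USP36, USP28 and USP22 fell and UCHL5 rose. USP22, at -0.92 with the size factors of DESeq2, was then under 2-fold, and UCHL5 was not called with library totals (adjusted p = 0.0829).

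Whether polysomes and transcriptome changed by unequal amounts was tested as the polysome log2 change minus the transcriptome log2 change. The sign of this difference does not say which of them moved further. From GV to MII it was positive in 3 members and negative in 5 (7.14% and 3.5% of all genes). OTUB1 was the largest positive one, with a transcriptome that fell and pools that went from 223 and 238 to 423 and 358 CPM (difference 3.16 ± 0.34, adjusted p = 2.53e-06), and USP11 and BAP1 were the others. OTUD6B, USP12, OTUD4, USP46 and USP14 were negative, with OTUD6B at 69.2 and 57.9 and then 32.0 and 48.7 CPM in pools and a transcriptome that rose. From MII to 2-cell only OTUD4 was called, with a positive difference (0.725% of all genes, and 1.08% negative), as its pools went from 2.85 and 4.96 to 30.1 and 27.6 CPM. With library totals or the size factors of DESeq2, the split from GV to MII was 2 and 5 or 2 and 6, and BAP1 lost its call (adjusted p = 0.0554 and 0.0573).

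From 2-cell to 8-cell, the difference was positive in 3, USP48, USP40 and USP7, and negative in 4, USP45, USP38, USP14 and OTUB1 (3.45% and 8.72% of all genes), OTUB1 not with library totals (adjusted p = 0.0508). The difference for USP48 was 3.20 ± 0.52 (adjusted p = 0.000322), from a transcriptome that fell and pools without a called change, whereas that for USP45 came from pools that dropped to 0. From 8-cell to morula there were 3 positive and 5 negative differences (7.06% and 5.41%), namely USP45, USP53 and USP14, and USP20, OTUD4, USP48, USP10 and USP22. The difference for USP20 was -4.12 ± 1.33 (adjusted p = 0.0429), with pools from 19.5 and 25.3 to 0 and 1.82 CPM. USP14, USP45 and USP48 were thus called at both steps with opposite signs, and both steps share the 8-cell libraries.

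From morula to blastocyst, the difference was positive in 3 and negative in 5 (6.04% and 6.24% of all genes). The 5 were USP35, USP36, USP22, USP5 and BAP1, all of which had been higher in polysomes up to the morula stage. USP22 shows the pattern, with transcriptomes from 49.6, 41.8 and 39.3 to 156, 144 and 183 CPM and pools from 409 and 458 to 240.4 and 201 CPM (difference -2.90 ± 0.42, adjusted p = 0.000167). The 3 were OTUD6B (3.35 ± 0.51, adjusted p = 0.00024), OTUB1 and UCHL3, whose transcriptomes fell without a called change of the pools.

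By the rule for maternal and embryonic transcripts, a more than 4-fold difference between each of GV and MII oocytes and each of 8-cell embryos, morulae and blastocysts, 2 members were maternal, USP13 and USP28 (6.79% of all genes), and 3 embryonic, STAMBP, USP12 and USP50 (6.69%). The smallest of the 6 log2 differences was 2.33 for USP13, 2.53 for USP28, 2.92 for STAMBP and 2.43 for USP12. USP28 went from 362, 422 and 529 CPM at MII to 9.09, 7.76 and 8.35 CPM in blastocysts, and STAMBP from 4.79, 4.62 and 2.91 to 43.3, 50.1 and 46.6 CPM. USP12 rose from 12.2, 6.61 and 4.09 to 88.8, 107 and 115 CPM. USP50, which lacks an active protease site, stayed low, at 0.104, 0.283 and 0.108 CPM and then 2.73, 4.41 and 2.04 CPM.

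The last comparison set heavy against light fractions of the same gradients, over 14873 genes with 64 members tested. In GV, MII and 2-cell samples 0 members were called by edgeR's quasi-likelihood test in either direction (0.202% up and 0.0672% down of all genes in GV, 0.121% and 0.0807% in MII, 0% and 0% in 2-cell), with 14, 8 and 1 members at an unadjusted p under 0.05. DESeq2 called 7, 7 and 1 and the likelihood ratio test of edgeR 1, 3 and 0. USP5, the member furthest above its transcriptome in polysomes, was no higher in heavy than in light pools: in GV oocytes it was at 183 and 292 CPM in heavy and 315 and 339 CPM in light pools (log2 fold -0.50, adjusted p = 0.895), and USP22 at 278 and 349.7 and 272 and 313 CPM (log2 fold 0.10). For both genes the light pools, too, lay above every GV transcriptome. USP9X, low in polysomes, was at 15.1 and 28.3 CPM in heavy and 3.25 and 3.33 CPM in light pools (log2 fold 2.65, adjusted p = 0.359). Of the 12 members higher at 5 or 6 stages, all but USP22 and JOSD2 were lower in heavy than light GV pools in both gradients. BAP1 was at 10.1 and 13.4 CPM in heavy and 49.3 and 65.1 CPM in light pools. Of the 19 lower members, all but USP42, OTUD4, USP7 and USP28 were higher in heavy GV pools in both gradients. USP8 was at 66.4 and 84.6 and 22.0 and 17.2 CPM. None of these GV differences was called.

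In 8-cell embryos 2 members were higher in the heavy pools and 3 lower (4.06% and 4.68% of all genes). UCHL1 was at 564 and 611 CPM in heavy and 21.5 and 78.4 CPM in light pools (log2 fold 3.83 ± 0.80, adjusted p = 0.0215), and UCHL3 at 69.7 and 31.0 and 10.0 and 4.78 CPM. USP36 was at 268 and 394 CPM in heavy and 2483 and 2447 CPM in light pools (log2 fold -2.93 ± 0.33, adjusted p = 0.0132), and USP2 and USP11 were lower as well. No member was called without gradient A of the 8-cell stage and 8 were without gradient B, 2 of these 5 among them. With library totals the split was 3 and 2, and without the gradient as a term UCHL1 (adjusted p = 0.0787) and USP2 (adjusted p = 0.144) were not called.

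Morulae had 1 member higher, USP14, and 2 lower, USP2 and USP36 (0.518% and 0.894% of all genes). USP14 was at 18.3 and 27.4 CPM in heavy and 0.170 and 1.03 CPM in light pools (log2 fold 5.58 ± 0.92, adjusted p = 0.0272). In blastocysts USP20 was higher, at 5.97 and 2.13 CPM against 0 in both light pools and so at least 21.7-fold by the floor, and USP36 lower, at 21.2 and 37.7 against 376 and 517 CPM (0.639% and 0.672% of all genes). Without gradient A of the stage no morula call and 1 blastocyst call were left, and without gradient B there were 4 and 1. Without the gradient as a term USP2 (adjusted p = 0.125) and USP36 (0.169) were not called in morulae, nor USP20 (0.0633) in blastocysts, where the split was 2 and 1 with library totals. USP36 was the only member called at 3 stages, each time lower in the heavy pools. Its morula call was also lost with no filter (adjusted p = 0.0528) and with fractions weighted equally (0.0525).

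**Figure D4:**
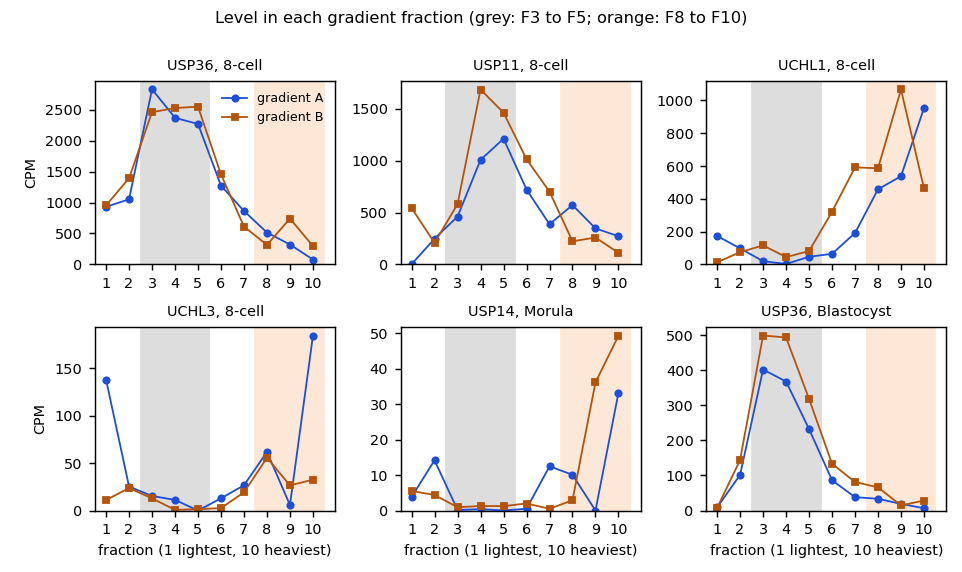
Level (CPM) of single fractions from F1 (lightest) to F10 (heaviest) in gradients A and B for USP36, USP11, UCHL1 and UCHL3 in 8-cell embryos, USP14 in morulae and USP36 in blastocysts; grey marks the light and orange the heavy fractions, and each point is 1 library. USP36 peaks in the light fractions in all 4 gradients shown, at up to 2829 CPM, and UCHL1 is highest in F9 or F10.

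The single fractions showed the same contrast. In 8-cell embryos USP36 lay at 2269 to 2829 CPM in F3 to F5 of both gradients and at 79.0 to 742 CPM in F8 to F10. UCHL1 lay at 2.81 to 116 CPM in F3 to F5 and at 458 to 1067 CPM in F8 to F10, with its highest value in F10 of gradient A and in F9 of gradient B. UCHL3 was less even: F10 of gradient A held 184 CPM, but F1 of the same gradient held 137.8 CPM and F9 5.76 CPM. USP36 kept its light peak in blastocysts, at 232 to 499 CPM in F3 to F5 and 6.60 to 66.1 CPM in F8 to F10.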

How the data were processed

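The authors quantified reads with Salmon and deposited 1 table of expected counts, not normalised, for 16706 gene symbols in 138 libraries (120 gradient fractions and 18 transcriptomes), of which 11.7% of values were not whole. The submitters' processing notes name Salmon, edgeR and the build UMD3.1, while the study's methods name another bovine build. Coordinates were used only to find overlapping genes in RefSeq (ARS-UCD2.0), a build other than those 2. Library amplification used a Smart-seq kit without molecular identifiers, and sources differ on whether gradients held about 100 or 200 oocytes or embryos.

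Counts were rounded, F8 to F10 (and F3 to F5) were summed per gradient, and CPM was computed with TMM factors. The edgeR 4.0.16 quasi-likelihood test in R 4.3.3 (filterByExpr, 12 groups, two-sided) was fitted on 14612 genes, and heavy against light pools on 14873 genes with the gradient as a term. Transitions also needed more than 2-fold. Maternal and embryonic calls needed more than 4-fold in 6 comparisons. An SE is the log2 fold divided by the root of F. DESeq2 1.42.0 and edgeR's likelihood ratio test were alternatives, with other scalings, no filter, fractions weighted equally, a replicate block and left-out replicates. Tests were checked on simulated data. No libraries were identical. Figures used matplotlib 3.10.9.

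Members and lists were chosen with earlier results of these data known. Members were named if called 1 way at 5 or 6 stages, among the 5 or 6 largest called changes of a comparison (4 for heavy against light), in a fixed pair, maternal or embryonic, or at 0, and others are named for their role. A rule on levels per coding length could not be used. All 65 symbols matched RefSeq names (ARS-UCD2.0), and the spans of 17 members overlap another protein-coding gene there. Strand and exons were not compared, so how far this makes their counts uncertain is not known. Per the paper the gradients came from 2 runs of the experiment, and the transcriptome pools shared their batches with the gradients. Whether the transcriptome pools of a stage came from 1 batch is not settled by its wording. The p-values measure the spread between these pools, which may be partly technical.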

Additional observations from a re-analysis of the deposited data

Results flagged for a closer look

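In the following members the change between consecutive stages differed between polysome pools and transcriptome by a test of the difference itself, given as the polysome log2 change minus the transcriptome log2 change. From GV to MII this was 3.16 in OTUB1, 1.82 in USP11 and 1.75 in BAP1, and -4.75 in USP12, -2.47 in OTUD4, -1.91 in USP46, -1.75 in OTUD6B and -1.64 in USP14. From MII to 2-cell it was 3.24 in OTUD4. From 2-cell to 8-cell it was 3.20 in USP48, 2.08 in USP40 and 1.59 in USP7, and -9.57 in USP45, -2.54 in USP38, -2.52 in USP14 and -1.08 in OTUB1.

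From 8-cell to morula the difference was 9.60 in USP45, 5.53 in USP53 and 2.94 in USP14, and -4.12 in USP20, -2.20 in OTUD4, -1.90 in USP48, -1.87 in USP10 and -1.43 in USP22. From morula to blastocyst it was 3.35 in OTUD6B, 2.02 in OTUB1 and 1.78 in UCHL3, and -4.39 in USP35, -3.87 in USP36, -2.90 in USP22, -2.53 in USP5 and -1.86 in BAP1. The values of USP45 are fitted ones against pools at 0 in 8-cell embryos and are no measured folds. Consecutive steps share the libraries of the stage between them.

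The lightest fractions F1 and F2, which enter no comparison, also held these mRNAs: 62 of the 65 members had more than 3 counts in F1 or F2 of both gradients at 1 stage or more.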

How the results depend on the processing

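Depth differs between the kinds of library, from 3269386 counts in a blastocyst transcriptome to 39380638 in a morula pool, so low members such as USP26, USP50 and JOSD2 are measured less well in transcriptomes. Each stage has 2 gradients, and the pools of the 8-cell stage and morulae vary most. With replicate A or B left out, each stage keeps a lone pool, which is assumed to vary like the other groups, and the spread then comes mostly from the transcriptomes. Of 327 single-gene results, 322 kept their direction and side of the threshold with DESeq2, 317 with its size factors, 324 with the likelihood ratio test, 307 with library totals and 316 with no filter. Of 317 results, 90 lost their call without replicate C, 21 without replicate B and 11 without replicate A. The STAMBP polysome change from 2-cell to 8-cell was -1.71 without replicate B and 6.18 without replicate A.

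Replicate letters did not pair samples: deviations of same-lettered pools and transcriptomes correlated between -0.0644 and 0.0104 over genes. With the replicate letter as a block, 16 of 317 single-gene calls were lost and 1 was gained, 1 member changed in the polysomes from GV to MII, and 5 members differed between polysome and transcriptome change from 8-cell to morula. Without the gradient as a block, the heavy against light comparison called 1 member in MII oocytes and 1 in morulae.

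Counts of members called moved by more than 1.5 times as follows. In the transcriptome, GV to MII gave 16 with DESeq2 and 17 with the likelihood ratio test, and MII to 2-cell 13 with library totals. In polysomes, GV to MII gave 5 with DESeq2, 4 with the likelihood ratio test, 4 with library totals, 1 with no filter and 1 with fractions weighted equally. MII to 2-cell gave 8, 7 and 7 with DESeq2, the likelihood ratio test and library totals, and morula to blastocyst 11 and 9 with the first 2. The difference of changes gave 6 and 3 with these tests from MII to 2-cell, where no filter gave 2, and 12 with each from 2-cell to 8-cell. Heavy against light gave, with DESeq2, 7 in GV, 7 in MII, 1 in 2-cell, 22 in 8-cell, 14 in morula and 15 in blastocyst samples, and with the likelihood ratio test 1 in GV, 3 in MII, 14 in 8-cell, 11 in morula and 12 in blastocyst samples.

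With 1 replicate left out, the polysome against transcriptome counts ranged from 29 to 48 in GV, 45 to 55 in MII, 36 to 58 in 2-cell, 37 to 58 in 8-cell, 32 to 52 in morula and 21 to 42 in blastocyst samples. In order of the 5 transitions, transcriptome counts ranged from 1 to 24, 0 to 17, 17 to 33, 3 to 23 and 5 to 28, polysome counts from 0 to 17, 1 to 24, 17 to 36, 16 to 46 and 1 to 32, and counts of unequal change from 1 to 29, 0 to 13, 2 to 34, 2 to 37 and 4 to 29. Maternal members ranged from 1 to 4 and embryonic ones from 0 to 3. Heavy against light counts without 1 gradient of the stage, an alternative chosen after seeing the data as were the library totals, ranged from 0 to 8 in 8-cell, 0 to 4 in morula and 1 to 1 in blastocyst samples. Leaving out a letter at all stages was not run there, since no residual degrees of freedom remained. The causes of these shifts were not tested.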
